A study of Spermophilus dauricus with 30 samples.

Results

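A group of 12 genes whose counts were high both in torpor and in the arousals between torpor bouts was followed in skeletal muscle of *Spermophilus dauricus*, the Daurian ground squirrel, which is a small hibernating rodent. The genes were chosen by their values in these same libraries. Counts were divided by median-of-ratios size factors, which bring libraries of different depth to one scale, and are called normalised counts. In each muscle, the median normalised counts of hibernation and of arousal had to be at least 100, to differ by less than 1.5-fold, and each to be at least 1.3 times the median of every other state. Of 26378 numeric identifiers, 12 met this in both muscles, out of 27394 identifiers in the whole table. The table gives genes as numbers and does not pair them with names, so no role could be given to a member. The 12 are ranked by their rise, the mean over muscles of the log2 ratio of the lower of the hibernation and arousal medians to the largest of the other medians, from rank 1 for the largest. The first 2 in rank and the 2 others with the lowest level after hibernation against summer, as the mean of the muscles, are given by number. Other members are given by rank, and those described singly were chosen after their values were seen.

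The squirrels were sampled in 5 states: active in summer (SA), ahead of hibernation (PRE), in hibernation (HIB), in an arousal between bouts (IBA) and once hibernation had ended (POST). With 3 libraries for each state in SOL and 3 in EDL, short for the soleus and for the extensor digitorum longus, the 30 libraries formed 10 groups. All animals are labelled WT, and the treatment label is the same word for all 30 libraries, summer ones included, so the state was taken from the sample titles. The labels used here give no age, sex, body temperature or time since the last torpor bout.

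A hibernating squirrel spends the cold season in bouts of torpor, in which body temperature and metabolism fall far below normal, broken by short arousals in which it warms up again. Setting arousal beside torpor asks which transcripts keep their level through these swings in temperature and activity. The soleus is a slow, postural muscle and the extensor digitorum longus a fast one. In whole muscle, fewer cells of a type and less RNA per cell cannot be told apart, and the labelled tissue could not be checked against marker genes because the identifiers carry no names.

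Library totals ran from 31442362 to 41972200 counts, and 17865 to 19488 identifiers had at least 1 count in a library. No label ties a library to an animal, so a p-value rests only on the spread among the 3 numbered samples within groups, which may be technical. That spread was pooled over all groups of a fit, so libraries outside a contrast shape its p-values too. Within SOL, POST replicate 1 stood apart, at -112 on the first principal component of log2 CPM, where the other 14 lay between -19.6 and 66.9. Within a state, SOL and EDL libraries of the same number deviated from their group means together, so the muscles are not independent repeats of each other. A count depends on the length of a transcript, so levels are compared between samples and not between members.

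Identifier 101970510 had the largest rise, 1.79-fold as the mean of the muscles. In SOL its normalised counts were 11757, 30512 and 18069 in SA, 25667, 14077 and 14453 in PRE, 102134, 41650 and 43228 in HIB, 33761, 40997 and 75342 in IBA, and 19180, 8261 and 15707 in POST, in the order of replicates 1 to 3. In SOL all 6 libraries of HIB and IBA lay above all 9 others. In EDL they were 26320, 44836 and 14604 in SA, 30369, 35947 and 44348 in PRE, 141348, 58208 and 37544 in HIB, 50801, 45495 and 73207 in IBA, and 35722, 18789 and 33067 in POST. In EDL 1 SA and 1 PRE library lay above the lowest HIB library. HIB replicate 1 was the highest library of this member in both muscles. This was also the member with the most counts. It took from 0.0229% to 0.377% of a library's counts and stood between place 22 and place 591 among the identifiers of a library.

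Identifier 101976921, rank 2, had a rise of 1.66-fold by the same measure. In SOL its normalised counts were 161, 228 and 218 in SA, 165, 146 and 424 in PRE, 496, 573 and 295 in HIB, 421, 216 and 371 in IBA, and 211, 186 and 243 in POST. PRE replicate 3 stood apart from the other PRE libraries in SOL, and IBA replicate 2 lay within the range of SA. In EDL they were 134, 322 and 302 in SA, 176, 214 and 268 in PRE, 475, 797 and 511 in HIB, 493, 287 and 1002 in IBA, and 251, 260 and 282 in POST. In EDL all 3 HIB libraries lay above every SA, PRE and POST library, and IBA replicate 2 again lay within the range of SA.

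Identifier 101956675, rank 3, was lowest before hibernation in both muscles. In SOL its normalised counts were 129, 64.1 and 82.9 in SA, 8.55, 27.3 and 20.1 in PRE, 129, 144 and 221 in HIB, 171, 173 and 39.8 in IBA, and 59.2, 116 and 58.7 in POST. In EDL they were 147, 54.3 and 58.6 in SA, 6.26, 26.0 and 30.02 in PRE, 134, 145 and 232 in HIB, 173, 118 and 9.58 in IBA, and 95.9, 84.2 and 30.9 in POST. The 3 PRE libraries lay below all SA libraries in each muscle. IBA replicate 3 was far below the other IBA libraries in both muscles, so the arousal median of this member rests on replicates 1 and 2. Its raw counts were as low as 6 in a library, and counting error is not small there.

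Identifier 101969221, rank 5, came next after identifier 101956675 among the rest in its low level in POST against SA, by the mean of the muscles. In SOL its normalised counts were 233, 176 and 190 in SA, 146, 173 and 234 in PRE, 251, 260 and 263 in HIB, 367, 242 and 432 in IBA, and 140, 99.8 and 331 in POST. In SOL 1 of the 9 other libraries, POST replicate 3, lay above the lowest of HIB and IBA. In EDL they were 115, 168 and 235 in SA, 227, 222 and 152 in PRE, 394, 433 and 340 in HIB, 381, 302 and 625 in IBA, and 171, 60.3 and 218 in POST. In EDL all 6 HIB and IBA libraries lay above all 9 others.

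**Figure D1:**
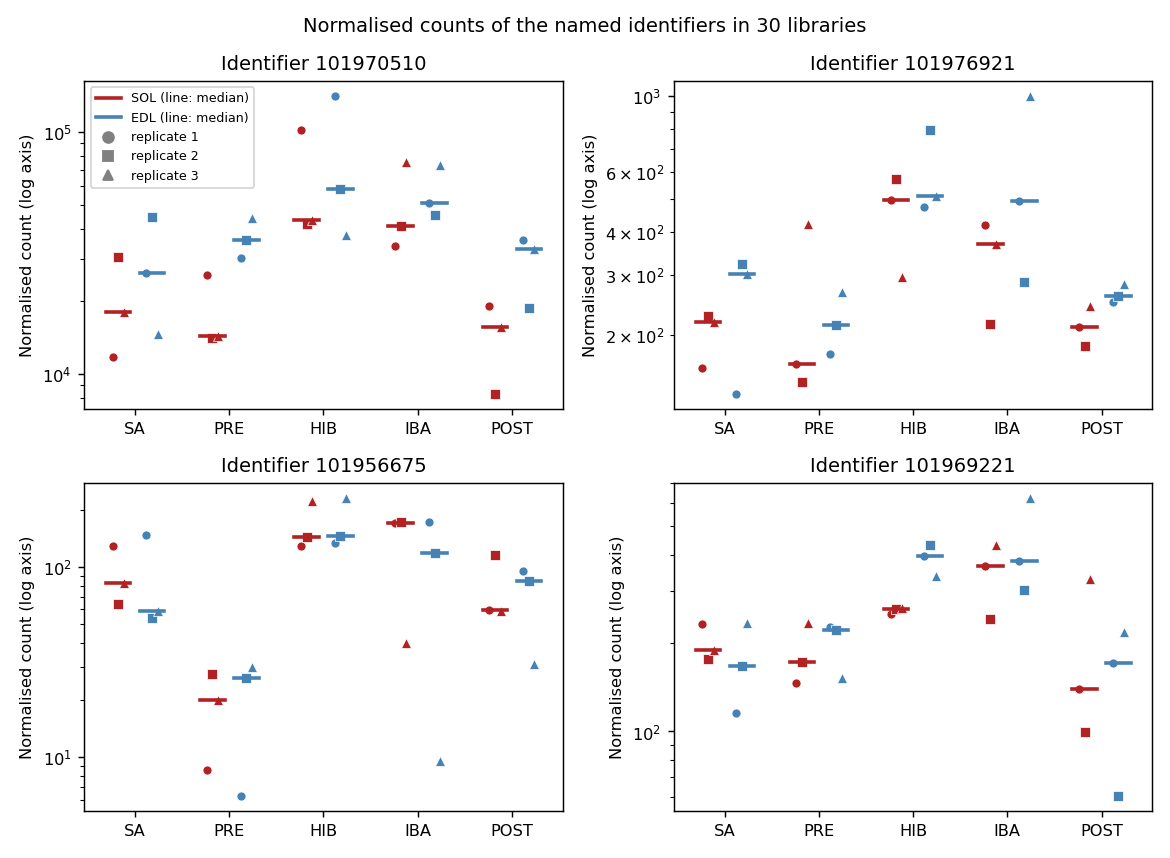
Normalised counts (log axis) of the 4 identifiers given by number, by state, for SOL and EDL, with 1 symbol per library, its shape giving the replicate number, and a line at the group median. The medians of HIB and IBA stand above those of SA, PRE and POST in each panel, while single libraries such as IBA replicate 3 of identifier 101956675, at 39.8 in SOL and 9.58 in EDL, do not.

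The size of the rise is a description of what the choice of members used, and the tests of these contrasts are given without reading anything from them. The log2 fold change of HIB against SA ran from 0.36 to 2.04 in SOL, with a median of 0.97 over the 12 members and -0.02 over all 16443 identifiers tested. The values in EDL lay between 0.33 and 1.84, and their median was 1.16 over the members and 0.0040 over all 16299 tested. In SOL 3 of 12 members were higher in HIB in edgeR's quasi-likelihood test, at an adjusted p below 0.05, as did 1.64% of all identifiers tested (either direction, 3.59%). In EDL 3 of 12 passed, as did 2.56% of all (either direction, 4.79%). The members ranked 10 and 12 were in both sets of 3. The number of calls changed when single libraries were left out, for all identifiers as for the members. In SOL 0 of 12 were called without SA replicate 1 or 3 or any 1 of the 3 HIB replicates. Without SA replicate 2, 1 was called, and without POST replicate 1, 5 were called. POST replicate 1 lies outside this contrast but enters the scaling, the choice of identifiers tested and the estimate of spread. Of all identifiers tested in SOL, 591 were called with all 15 libraries, 6 to 179 without 1 of the SA or HIB libraries, and 1616 without POST replicate 1. In EDL 0 were called without SA replicate 1 or 3 or HIB replicate 1 or 3, 1 without SA replicate 2 and 2 without HIB replicate 2, while the calls over all identifiers went from 780 to between 89 and 416. An unadjusted p under 0.05 was found for 7 members in SOL with all libraries and without each of these 7, and in EDL for 10 with all libraries and for 7 to 10 without 1 of the 6. With all libraries, 11% of all identifiers were higher at this level in SOL and 11.9% in EDL (either direction, 24% and 23.5%). DESeq2 called 7 of 12 in each muscle, and 11.9% of all in SOL and 10.6% in EDL.

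In the other contrasts that the choice used, edgeR called 0 of 12 members in either muscle. For HIB against PRE, 0.00608% of all identifiers tested were called higher in SOL and 0.362% in EDL (either direction, 0.0365% and 0.73%). For HIB against POST the shares were 0% and 0.117% (0.0122% and 0.215%). For IBA against SA they were 0.0669% and 0.092% (0.116% and 0.11%), for IBA against PRE 0% and 0.0123% (0% and 0.0123%), and for IBA against POST 0% and 0% (0% and 0%). An unadjusted p under 0.05 was found for 4 to 9 members in these contrasts, all of them higher. Of all identifiers, 3.38% to 9.57% were higher at this level (either direction, 7.92% to 19.5%). DESeq2 called 1 to 4 members (0.334% to 6.58% of all, either direction). For IBA against HIB edgeR called 0 of 12, against 0% of all identifiers in SOL and 0.0307% in EDL. There 0 members had an unadjusted p under 0.05 in either muscle (6.63% and 10.5% of all), and DESeq2 called 0 (0.249% and 0.822% of all), in a contrast that the choice of members held small.

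Differences between torpor and arousal, which the choice held under 1.5-fold, are given as values only. In SOL the HIB median was the higher of the pair for 6 members and the IBA median for 6, while in EDL the HIB median was higher for 10 and the IBA median for 2. By the test's estimates, 8 members stood lower and 4 higher in IBA than in HIB in SOL, and 9 lower and 3 higher in EDL. Of all identifiers tested, 48.7% stood lower in SOL and 49.8% in EDL. The members' log2 fold change of IBA against HIB lay between -0.55 and 0.44 in SOL and between -0.78 and 0.30 in EDL. The lowest EDL value was that of identifier 101956675, with its low IBA replicate 3. The lowest state of a member was PRE for 5, SA for 4 and POST for 3 in SOL, and SA for 8 and PRE for 4 in EDL.

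**Figure D2:**
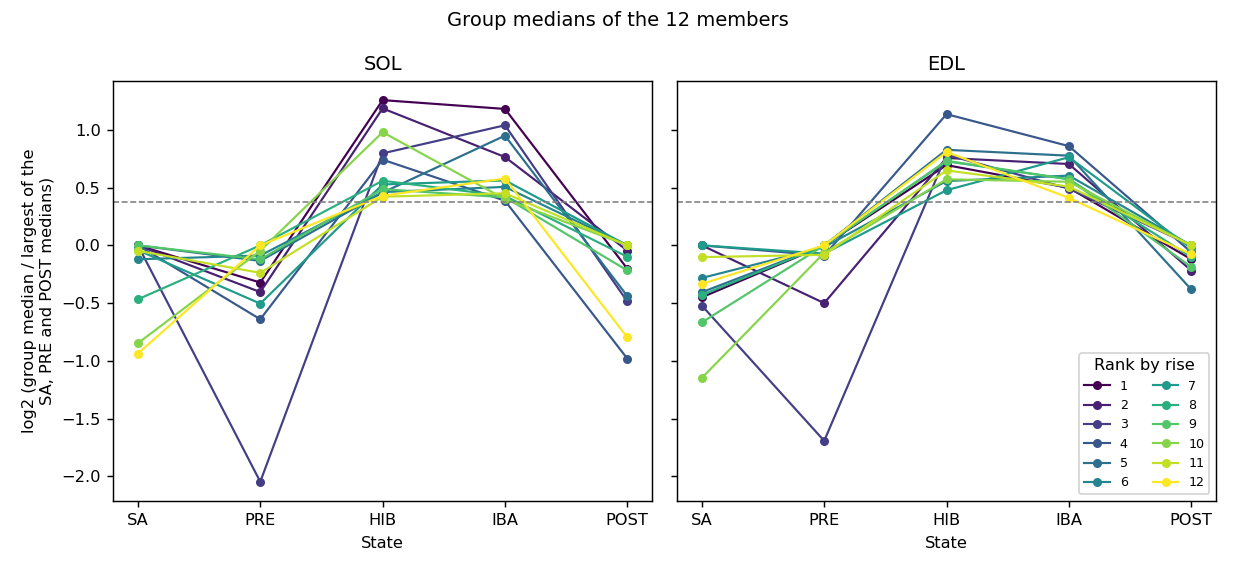
Group medians of normalised counts of the 12 members by state, as the log2 ratio to the largest of the SA, PRE and POST medians, in SOL (left) and EDL (right), with 1 line per member coloured by rank and a dashed line at 1.3 times. The HIB and IBA points lie above the dashed line because members were chosen so, and the deepest point is that of rank 3, identifier 101956675, in PRE, where its median was 20.1 in SOL and 26.0 in EDL.

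Single libraries overlapped more often than medians. All 6 HIB and IBA libraries lay above all 9 others for 2 of 12 members in SOL, ranks 1 and 6, and for 1 in EDL, rank 5. Among all identifiers tested this held for 0.152% in SOL and 0.117% in EDL. The choice set the HIB and IBA medians of members above the others, so a larger share among them follows from it. The identifiers tested also had no floor of 100, and nothing is read from this contrast. No member met it in both muscles. In the other 21 of 24 cases of a member in a muscle, between 1 and 8 of the 9 libraries of SA, PRE and POST lay above the lowest HIB or IBA library. The median coefficient of variation of the members within a group ran from 0.168 to 0.381 over the 10 groups. It was above that of all identifiers with a group median of at least 100 in each of the 10 groups. The latter ran from 0.139 to 0.283. Members had to reach 100 only in HIB and IBA. Some had lower medians elsewhere, such as 20.1 for identifier 101956675 in PRE SOL and 46.8 for rank 10 in SA EDL. The levels compared are therefore not matched in SA, PRE and POST. Whether choosing by group medians favoured members with a wide spread was not tested. Higher variability is not read as a trait of the members.

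The libraries were also compared by the mean over the 12 members of the log2 normalised count minus the SA mean of the same muscle. The height of HIB and IBA over SA follows from the choice of members, and the values are a description of single libraries. In SOL this mean was 1.09, 1.04 and 0.996 in HIB and 0.92, 0.61 and 0.96 in IBA for replicates 1 to 3. In EDL it was 1.196, 1.08 and 1.08 in HIB and 1.03, 0.69 and 1.02 in IBA. The 3 HIB libraries lay close together in each muscle, and IBA replicate 2 was the lowest of the 6 in both.

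Outside torpor and arousal, the mean ran from -0.28 to 0.17 in SA, from -0.25 to 0.19 in PRE and from -0.11 to 0.53 in POST in SOL. In EDL it lay between -0.24 and 0.15 in SA, between 0.02 and 0.20 in PRE and between -0.04 and 0.66 in POST. POST replicate 3 was the highest of these 9 libraries in both muscles and came near IBA replicate 2. POST replicate 3 also had the highest size factor of each muscle, 1.40 in SOL and 1.29 in EDL, and the part of this in its level was not tested. Without identifier 101970510 the mean of POST replicate 3 was 0.61 in SOL and 0.69 in EDL, and that of IBA replicate 2 was 0.56 and 0.68, so that the order of these libraries turned in both muscles. In 4 of 5 states the highest SOL library and the highest EDL library by the mean over 12 members carried the same number.

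**Figure D3:**
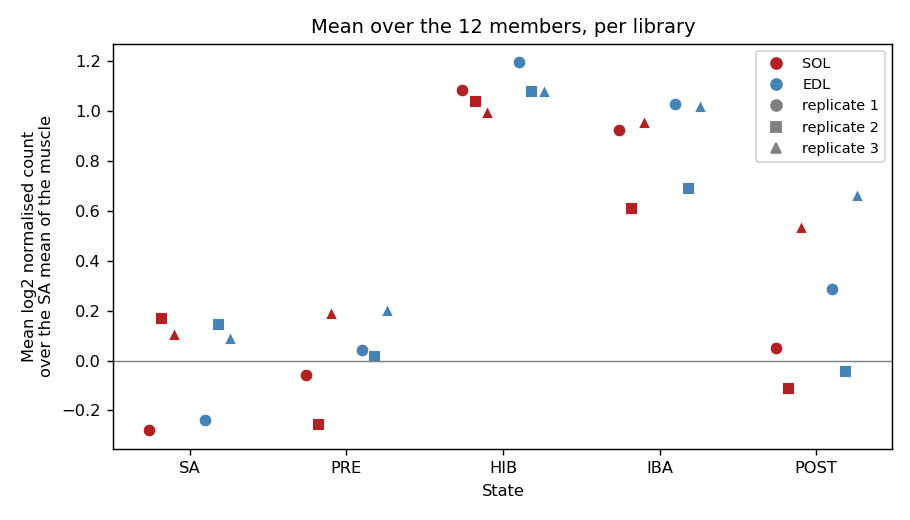
Mean over the 12 members of log2 normalised count minus the SA mean of the muscle (vertical axis), for each of the 30 libraries by state, with SOL in red, EDL in blue and the symbol giving the replicate number. HIB libraries lie between 0.996 and 1.196, IBA replicate 2 at 0.61 and 0.69, and POST replicate 3 at 0.53 and 0.66. HIB and IBA lie above SA because members were chosen so.

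Differences between the muscles were not used to choose members and were tested over all 30 libraries as the mean difference of the 5 states. Of 12 members, 5 passed edgeR's adjusted p of 0.05, 3 higher in SOL and 2 higher in EDL, while 28.9% of all 16946 identifiers tested passed, 14.4% in each direction. With each SOL library paired to the EDL library of its number and state, 8 passed, the 5 among them, and 40.7% of all. The member ranked 4 had the largest difference. Its SOL medians ran from 2228 in POST to 7355 in HIB and its EDL medians from 824 in PRE to 1928 in HIB, and it was higher in SOL by 1.95 ± 0.19 on the log2 scale (SE, edgeR adjusted p = 1.784e-08). It passed in each state taken alone, with log2 differences from 1.66 in POST to 2.33 in SA. The shares of all identifiers that passed were 5.3% in SA, 3.88% in PRE, 3.09% for hibernation, 2.31% for arousal and 8.41% in POST.

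The member ranked 12 was higher in SOL by 1.18 ± 0.15 (SE, edgeR adjusted p = 1.76e-06). In the order SA, PRE, HIB, IBA and POST, its SOL medians were 278, 531, 716, 794 and 306, and its EDL medians were 150, 189, 332, 252 and 179. Taken alone, it passed in PRE and IBA, where its SOL medians were furthest above those of EDL. The member ranked 8 was higher in SOL by 0.45 ± 0.15 (SE, edgeR adjusted p = 0.0275).

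Higher in EDL were the member ranked 9 and identifier 101970510. The log2 fold change of SOL against EDL was -0.94 ± 0.15 for rank 9 (SE, edgeR adjusted p = 2.45e-05). Its SOL medians lay between 2182 and 3555 and its EDL medians between 3112 and 8215. For identifier 101970510 it was -0.61 ± 0.22 (SE, edgeR adjusted p = 0.0381) and, paired, -0.61 ± 0.12 (edgeR adjusted p = 0.00111). Without pairing its call was lost on leaving out any of 15 of the 30 libraries, with values from -0.72 to -0.46. Identifier 101976921 stood at -0.33 ± 0.18 (edgeR adjusted p = 0.194) and passed when paired (edgeR adjusted p = 0.0347) or, without pairing, when PRE SOL replicate 3 was left out (-0.47, edgeR adjusted p = 0.0403). Identifiers 101956675 and 101969221 did not pass, at 0.08 ± 0.31 and -0.09 ± 0.18 (edgeR adjusted p = 0.873 and 0.749). The count of 5 was 3 without POST EDL replicate 1.

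**Figure D4:**
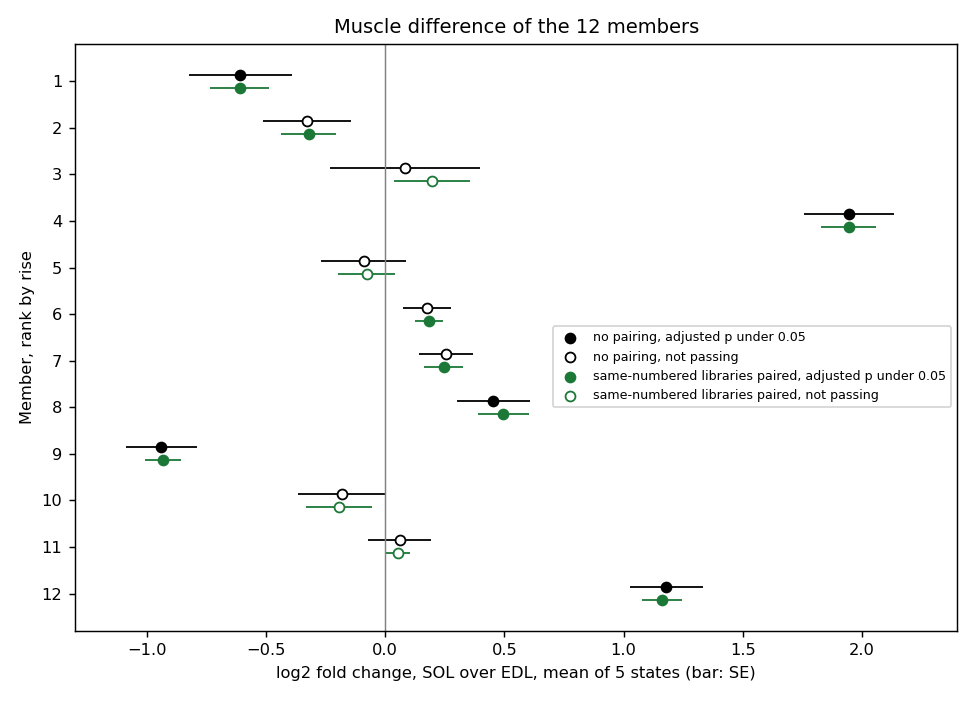
Log2 fold change of SOL over EDL, as the mean of 5 states (horizontal axis, bars ± SE), for the 12 members by rank, without pairing (black) and with same-numbered libraries paired (green), filled where the adjusted p was under 0.05. Ranks 4, 12 and 8 lie to the right at 1.95, 1.18 and 0.45 and ranks 9 and 1 to the left at -0.94 and -0.61.

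Whether the rise differed in size between the muscles was tested as the mean of HIB and IBA minus the mean of SA, PRE and POST in SOL, less the same in EDL. The choice of members asked for a rise in each muscle, which narrows this difference. Of 12 members 0 passed in edgeR, as did 0% of all identifiers, and 0 had an unadjusted p under 0.05, against 2.48% of all. DESeq2 called 0 as well. The differences ran from -0.61 to 0.59 on the log2 scale, with a median of 0.04. Identifier 101969221 was at one end, with -0.61 ± 0.36 (SE, edgeR adjusted p = 1.0), and identifier 101970510 at the other, with 0.59 ± 0.44 (SE, edgeR adjusted p = 1.0). With the SOL and EDL libraries of each number paired, 0 passed as well, but 2 members had an unadjusted p under 0.05, against 6.6% of all identifiers. These were identifier 101970510, at 0.62 ± 0.25 (SE, edgeR adjusted p = 0.687), and identifier 101969221, at -0.60 ± 0.24 (SE, edgeR adjusted p = 0.677). With standard errors from 0.21 to 0.63 unpaired and from 0.10 to 0.32 paired, these values do not show equal rises in the 2 muscles.

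The states outside torpor and arousal were compared with each other, which the choice of members did not do, although it set each of them below HIB and IBA. Between PRE and SA, edgeR called 0 of 12 members in SOL, where 0.0547% of all identifiers were called. It called 0 of 12 in EDL, where 0% were called. An unadjusted p under 0.05 was found for 2 members in SOL and 3 in EDL (20.3% and 14.5% of all identifiers). DESeq2 called 2 in SOL and 0 in EDL (6.53% and 3.31% of all). Without POST replicate 1, edgeR called 2 in SOL. Leaving out that library also raised the calls of HIB against SA over all identifiers. The share of all identifiers is not given for PRE against SA in that setting, and nothing about the members is read from this count. By the sign of the test's estimates, 6 members stood higher and 6 lower in PRE in SOL (median log2 fold change -0.02). In EDL 8 stood higher and 4 lower (median 0.21). Of all identifiers tested, 51.3% stood higher in SOL and 51.2% in EDL, with medians of 0.018 and 0.012. By group medians of normalised counts, PRE was below SA for 8 of 12 members in SOL and for 4 in EDL.

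The lowest value in both muscles was that of identifier 101956675. It stood at -2.31 ± 0.58 in SOL (SE, edgeR adjusted p = 0.0985) and -2.07 ± 0.81 in EDL (SE, edgeR adjusted p = 0.258). In SOL it passed when POST replicate 1, the library that stood apart in SOL, was left out (edgeR adjusted p = 0.0380) and in DESeq2 (adjusted p = 0.00374). The highest value in SOL was that of the member ranked 12, at 1.14 ± 0.36 (SE, edgeR adjusted p = 0.125), which stood at 0.26 ± 0.30 in EDL (SE, edgeR adjusted p = 0.737). The highest in EDL was that of the member ranked 10, at 0.95 ± 0.38 (SE, edgeR adjusted p = 0.274), followed by rank 9 at 0.69 ± 0.32 (SE, edgeR adjusted p = 0.337).

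Between POST and SA, edgeR called 0 of 12 members in SOL, against 0.87% of all identifiers, and 0 of 12 in EDL, against 8.65%. An unadjusted p under 0.05 was found for 2 members in each muscle (22.3% and 26.4% of all). DESeq2 called 0 in SOL and 1 in EDL (8.76% and 14.8% of all). Without POST replicate 2, edgeR called 1 in EDL, a count given without the share of all identifiers and not read as a result about the members. By the sign of the test's estimates, 8 members stood higher in POST and 4 lower in SOL (median log2 fold change 0.20). In EDL 10 stood higher and 2 lower (median 0.25). Of all identifiers tested, 51.5% stood higher in POST in SOL and 51.4% in EDL, with medians of 0.02 in both. By group medians of normalised counts, POST was below SA for 6 of 12 members in SOL and for 3 in EDL. The member ranked 10 stood 1.23 ± 0.44 higher in SOL (SE, edgeR adjusted p = 0.133) and 1.3 ± 0.38 higher in EDL (SE, edgeR adjusted p = 0.0504). Its SA libraries lay below its POST libraries in both muscles, with medians of 47.9 and 86.1 in SOL and 46.8 and 104 in EDL. The gap was small in EDL, where the highest SA library stood at 54.5 and the lowest POST library at 59.1. The share of all identifiers with such a separation is not given, and nothing is read from it. The PRE and POST comparisons share their SA libraries.

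Identifier 101956675 stood at -0.25 ± 0.53 in POST against SA in SOL and at -0.33 ± 0.75 in EDL (SE, edgeR adjusted p = 0.812 and 0.818). Identifier 101969221 stood at -0.07 ± 0.37 and -0.21 ± 0.40 (SE, edgeR adjusted p = 0.930 and 0.781). Their signs turned when single libraries were left out, so they have no direction in this comparison.

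**Figure D5:**
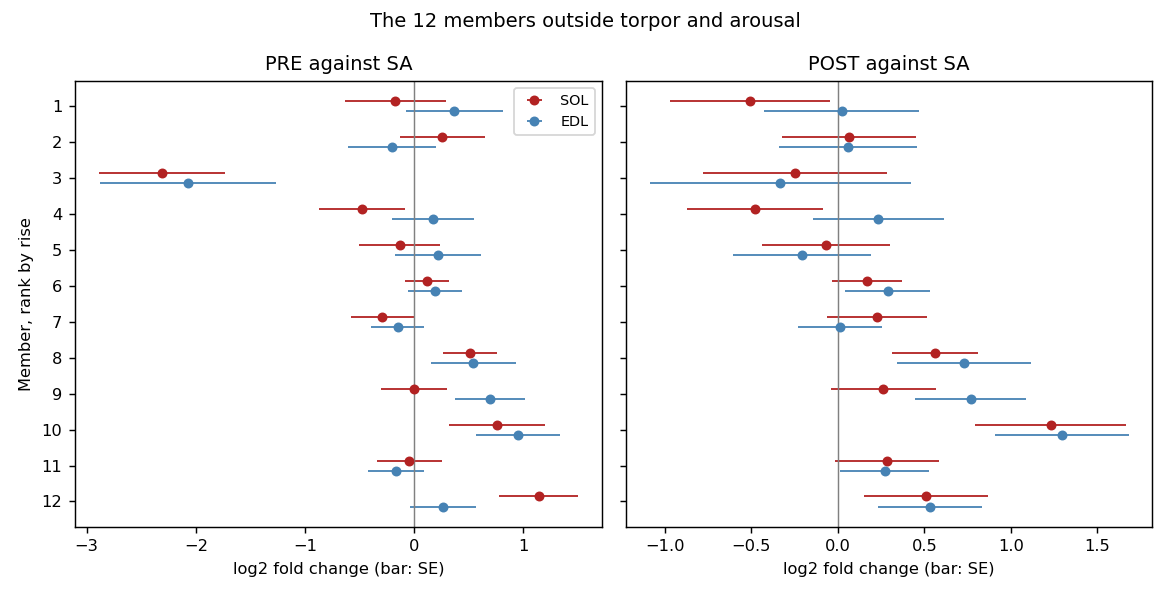
Log2 fold change (horizontal axis, bars ± SE) of PRE against SA (left) and POST against SA (right) for the 12 members by rank, in SOL (red) and EDL (blue). Rank 3 lies at -2.31 and -2.07 in PRE, rank 10 at 1.23 and 1.3 in POST, and no value passed an adjusted p of 0.05.

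Most identifiers that met the conditions met them in 1 muscle. In SOL 67 met them and in EDL 119, of which 12 were shared, 17.9% of the first and 10.1% of the second. Of the 55 that met them in SOL alone, 49 had HIB and IBA medians of at least 100 in both muscles. For 20 of these, 40.8%, both the HIB and the IBA median were above the other 3 in EDL too. For 107 in EDL alone the figures were 102, 30 and 29.4%. Over all 10807 identifiers above that level, both medians were above the other 3 for 10.1% in EDL and for 9.96% in SOL. The lower of the HIB and IBA medians was also set over the largest of the other 3. This ratio had a median of 0.943 in EDL for the 49 and of 0.893 in SOL for the 102. As same-numbered libraries deviate together, these figures are a description of these libraries.

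Membership turned on small margins. The last 3 members inside the limit had least ratios to the other states of 1.33, 1.32 and 1.31, and the first 3 outside it had 1.29, 1.28 and 1.26. The lowest HIB or IBA median of a member was 114, and the nearest identifier outside had 79.9. The largest ratio between HIB and IBA was 1.49 inside and 1.53 outside, and 7 further identifiers failed on this ratio alone. With group means in place of medians 17 identifiers met the conditions, of which 4 were among the 12. Leaving out 1 library, each member met them in 19 to 27 of 30 cases.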

How the data were processed

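The deposited values are raw counts, whole numbers for each identifier in 30 libraries. The extraction reagent was AG RNAex ProRNA and the library kit NEBNext Ultra RNA, per the labels' protocols. HISAT2 2.0.4 and HTSeq 0.9.1 are named in the submitters' processing notes. For the genome build, annotation and strand setting, the entry is not given in the sources used here. Near-identical, overlapping or antisense genes therefore have uncertain counts.

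The members and lists were chosen with earlier results of these data known. Size factors came from the 14678 numeric identifiers without a zero. Tests used R 4.3.3 and edgeR 4.0.16 on raw counts, with filterByExpr at a minimum count of 10, TMM scaling, the quasi-likelihood F test and Benjamini-Hochberg adjustment over all identifiers tested. State contrasts used the 15 libraries of 1 muscle, and muscle contrasts all 30. The standard error is the log2 fold change over the square root of F. The procedure was tested on simulated data. DESeq2 1.42.0, other scalings and filters, a replicate block and leaving out each library were alternatives.

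Pairing was checked on deviations from group means: within a state, SOL and EDL libraries of 1 number correlated above 0.1 in 15 of 15 pairs (0.13 to 0.59, median 0.44), while between states the median was -0.01, so numbers pair muscles and not states, as read from the data. No 2 columns were identical. Of 315 gene symbols in 21 lists, 0 matched an identifier. With no names, the rule for named genes gave the 2 members of largest rise and the 2 others lowest in POST against SA. The spread between libraries was not set against counting error, which is not small at the lowest counts.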

Additional observations from a re-analysis of the deposited data

How the results depend on the processing

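With 1 choice changed at a time, the number of members, the calls of PRE, POST and HIB against SA, of SOL against EDL over the 5 states and of the difference in rise were recomputed. The contrasts of HIB and IBA with PRE and POST, those of IBA with SA and HIB, the muscle contrasts of single states, the overlaps of libraries, the coefficients of variation and the library means were not, except that DESeq2 was also run on the state contrasts and the library means were also taken without identifier 101970510. The causes of changes were not tested. The settings for HIB against SA and the size factors from all identifiers were added after seeing the data. The number of members, 12, became 25 with a rise of at least 1.2 times, 1 with 1.5 times and 7 with a closer limit between HIB and IBA. It ran from 5 to 17 without single libraries (7 without POST SOL replicate 2, 5 and 6 without POST EDL replicates 1 and 2) and was 11 with size factors from all identifiers. Members called in PRE against SA in SOL, 0, became 2 with DESeq2, 1 with only the 6 libraries compared and 1 with all 30 libraries in 1 fit, and ran from 0 to 2 without single libraries. In POST against SA in EDL, 0 became 1 with DESeq2 and 1 with the replicate block across states, and ran from 0 to 1. For HIB against SA in SOL, 3 became 7 with DESeq2 and 5 with all 30 libraries, and ran from 0 to 5. In EDL, 3 became 7 with DESeq2 and 1 with only the 6 libraries compared, and ran from 0 to 2. SOL against EDL went from 5 to 8 with the replicate block and ran from 3 to 6. Where no share of all identifiers is given for a setting, its count is not read as a result about the members. Pairing of the muscles changed no other call of the identifiers given by number than that of 101976921, and the block across states none.

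Without single libraries, the log2 fold change of POST against SA lay between -0.66 and 0.072 in SOL and between -0.63 and 0.30 in EDL for identifier 101956675, and between -0.77 and 0.24 and between -0.59 and 0.16 for 101969221. SOL against EDL lay between -0.027 and 0.22 for 101956675. These were the results whose sign turned. PRE against SA for 101956675 lay between -2.68 and -1.97 in SOL and between -2.42 and -1.43 in EDL.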

Other observations

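The 1016 identifiers with a text prefix were left out of the choice of members. With the same size factors and conditions, 6 of them met the conditions in SOL, 10 in EDL and 1 in both, of 214 whose HIB and IBA medians were at least 100 in both muscles.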
